A study of Nothobranchius furzeri with 15 samples.

Results

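Of 18311 entries in a transcript catalogue of the annual killifish Nothobranchius furzeri, 283 were raised at least 4-fold in 1 of 5 skin samples, skin 7, without being raised 4-fold in liver 14. Members had to reach 10 CPM (counts per 1000000 counts of the library) in skin 7. Their level there, plus 0.5 CPM, had to be at least 4 times the mean over skin 5, 6, 13 and 14 plus 0.5 CPM. These conditions held for 355 entries (1.94%). Of these, 72 were left out because the same ratio of liver 14 to the mean over the remaining livers was 4 or higher. Both ratios are values of these libraries, so they are given below as a description, with no test. The words gene and entry are used alike, but 1 gene may be split over several entries. The working name of the set, genes raised in skin 7 only, goes further than the data. Liver 14 exceeded the other livers 2-fold or more for 62 members (21.9%) at 1 CPM or more there, against 2.88% of all entries. Liver 13 exceeded the other livers 4-fold or more for 4 members (1.41%) at 10 CPM or more, against 0.300% of all entries. With a minimum of 1 CPM there were 6 such members, and no background was computed for that count.

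RNA sequencing of total RNA was done on brain, liver and skin of fish of strain GRZ at 12 weeks of age, with 5 biological replicates in each tissue. No treatment or genotype is named in the labels, so the tissues are the groups. The samples are named here by the number in their title, which is 10, 11, 13, 14 or 15 in brain and liver and 5, 6, 7, 13 or 14 in skin. The labels do not say whether a number marks 1 fish. Libraries held 17.7 to 30.8 M catalogue counts, and skin 7 held 22.2 M, within the 17.7 to 22.2 M of the other skin samples. Skin 7 is a single sample, so its difference from the other skin samples has no replicate check.

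GRZ is a laboratory strain known for its short life. Fish skin is a layered organ in which an epidermis of keratinocytes and mucous cells lies over a dermis with scales and pigment cells. Liver is made up mainly of hepatocytes, which secrete plasma proteins, and brain of neurons and glia. RNA from a whole piece of tissue is a sum over all cells in the piece, so more cells of a type and more RNA per cell cannot be told apart. The members could not be assigned to a tissue or cell type by name. Each carries a zebrafish gene identifier, but no table used here pairs these identifiers with symbols, and the labelled tissues could not be checked against marker genes for the same reason. The members are therefore described by their levels in the 15 libraries, and 6 of them are given by identifier.

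The members together took 3.14% of the counts of skin 7 (696453 counts, 95% Wilson interval 3.13 to 3.14%). Their share was 0.248% in skin 5, 0.202% in skin 6, 0.223% in skin 13 and 0.303% in skin 14. The rule fixed this direction and a difference of at least 4-fold from the mean of the other skin samples. The shares are therefore given as a description. Intervals cover counting error only. In brain, where no value was used by the rule, the members took 0.886% ± 0.0619 (SD, n = 5) of the counts, and in liver 2.76% ± 0.260 (SD, n = 5). By unscaled column totals, the share of skin 7 was above that of every liver library. Liver 10 had the highest at 3.02% and liver 15 the lowest at 2.33%. Members were chosen for high levels in skin 7, which favours this order. It may also depend on scaling: skin 7 exceeded each of the 5 livers for 192 members without scaling and 172 with TMM scaling. Shares after scaling were not computed.

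**Figure D1:**
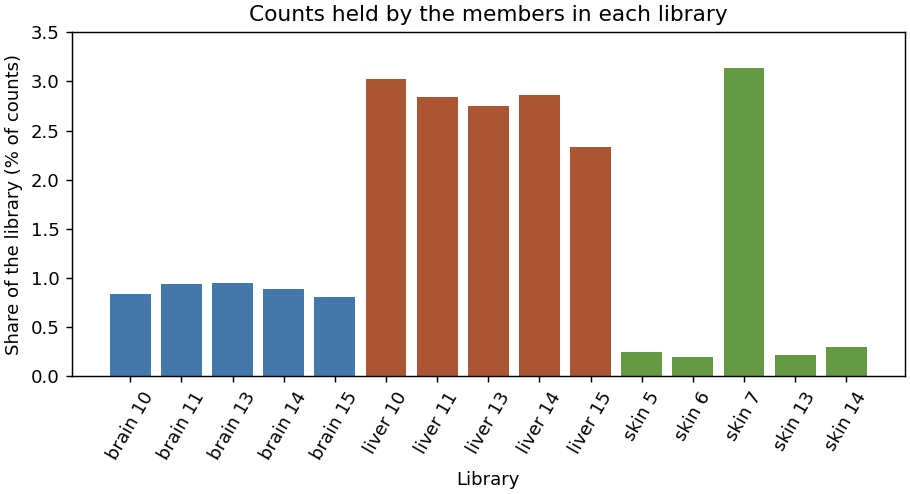
Share of each library's counts, in percent, held by the 283 members. Bars are single libraries coloured by tissue. Skin 7 stands at 3.14%, the other skin samples at 0.202 to 0.303%, the brain samples at 0.807 to 0.9503% and the liver samples at 2.33 to 3.02%.

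A few members carried much of this signal. Of the member counts in skin 7, 6.80% belonged to 1 gene, 35.9% to the 10 with the most counts and 82.6% to 100. The median member stood at 41.5 CPM in skin 7, with a range of 10.04 to 2132 CPM. Per length, the members ran from 2.19 to 890 RPKM (reads per kilobase of gene per 1000000 counts), with a median of 16.9 RPKM. In the other skin samples the members were present at low level, with a median of their means of 2.98 CPM. None of the 283 lacked counts in all 4 of those libraries, and 198 had a mean there of at least 1 CPM.

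The ratio of skin 7 to the other skin samples had a median of 9.96 and reached 1598. It was at least 8 for 165 members, at least 20 for 90, at least 50 for 42 and at least 100 for 16. The members form the upper edge of a continuous distribution and no gap separates them from the remaining genes. Just inside the 4-fold limit, members had ratios of 4.01, 4.02 and 4.02, and just outside it genes had 3.99, 3.93 and 3.90. At the other limit, 3 members stood at 10.04 to 10.1 CPM in skin 7, while the nearest genes left out stood at 9.77 to 9.81 CPM. The same holds for liver 14, where members reached a ratio of 3.9964 and the first genes left out had 4.04 and 4.38.

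**Figure D2:**
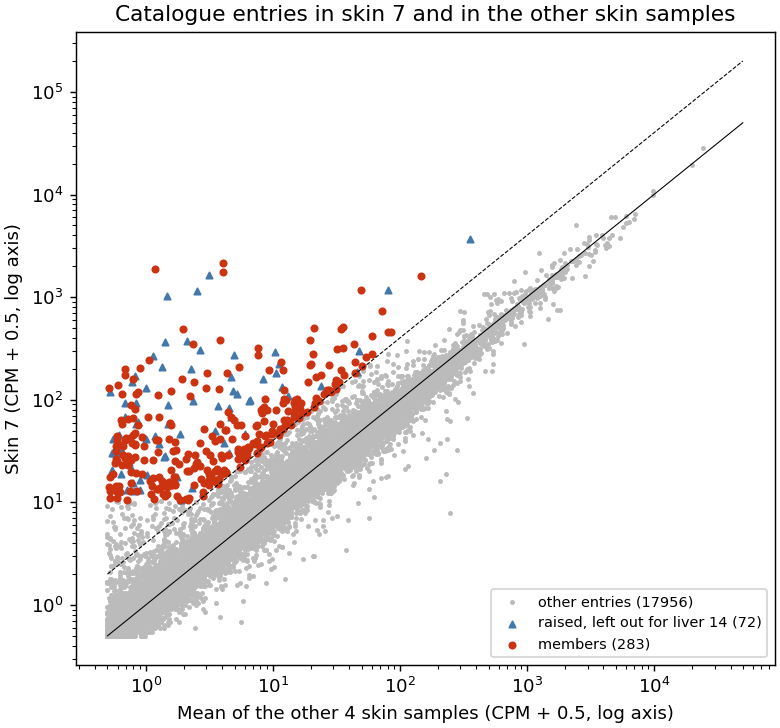
Level of each catalogue entry in skin 7 against the mean of the other 4 skin samples, in CPM plus 0.5 on log axes. The solid line marks equal levels and the dashed line a 4-fold higher level in skin 7. The 283 members and the 72 entries left out for liver 14 lie above the dashed line, members reaching a ratio of 1598.

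Neither the members nor all entries at 10 CPM or more in skin 7 were evenly spread among the other skin samples. Skin 14 was the highest of the 4 for 160 members (56.5%), but it was also the highest for 56.3% of all 9563 entries at 10 CPM or more in skin 7. Skin 5 was the highest for 62 members (21.9%, against 22.6% of those entries), skin 13 for 32 (11.3% against 8.01%) and skin 6 for 29 (10.2% against 13.1%). Skin 14 and skin 5 thus led in both sets, with shares of members near the background. Skin 13 and skin 6 changed places, but only by 32 members against 29. The coefficient of variation between the 4 samples had a median of 27.9% over the 198 members with a mean of 1 CPM or more there. It was 20.0% over the 9440 of those entries that met the same limit. For brain the medians were 17.4% and 14.2%, and for liver 32.03% and 27.9%. Members were chosen for low levels in the other skin samples, and levels were not matched between the sets, so nothing is read from these differences.

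The gene with the most counts in skin 7 was Nofu_gene_3_0004587, paired with zebrafish gene ENSDARG00000087013 and singled out after its values were seen. It stood at 2132 CPM in skin 7, and at 3.74, 3.02, 3.96 and 3.63 CPM in skin 5, 6, 13 and 14, a ratio of 522. In brain 10, 11, 13, 14 and 15 it stood at 8.18, 6.79, 5.22, 8.58 and 8.49 CPM. In liver 10, 11, 14 and 15 it stood at 0.916, 0.675, 0.460 and 0.772 CPM, but at 24.4 CPM in liver 13. Skin 7 was far above the other 14 libraries, and the next highest was liver 13. The entry is long, at 11.003 kb, where the median member has 2.62 kb, and by RPKM it ranked 7 among the members in skin 7.

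The gene with the next most counts, Nofu_gene_3_0004216 (ENSDARG00000007906), had a ratio of 1598, the largest among the 283. It stood at 1895 CPM in skin 7 and at 0.340, 0.671, 1.21 and 0.519 CPM in skin 5, 6, 13 and 14. Liver 13 again stood apart at 20.8 CPM, against 0.995, 1.31, 1.61 and 0.686 CPM in liver 10, 11, 14 and 15. Brain 14 held 1.79 CPM (36 counts), while brain 10, 11, 13 and 15 held 0.195, 0.204, 0.144 and 0.0862 CPM, or 2 to 6 counts each. This entry measures 14.2 kb, the longest of the members, and ranked 16 by RPKM.

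**Figure D3:**
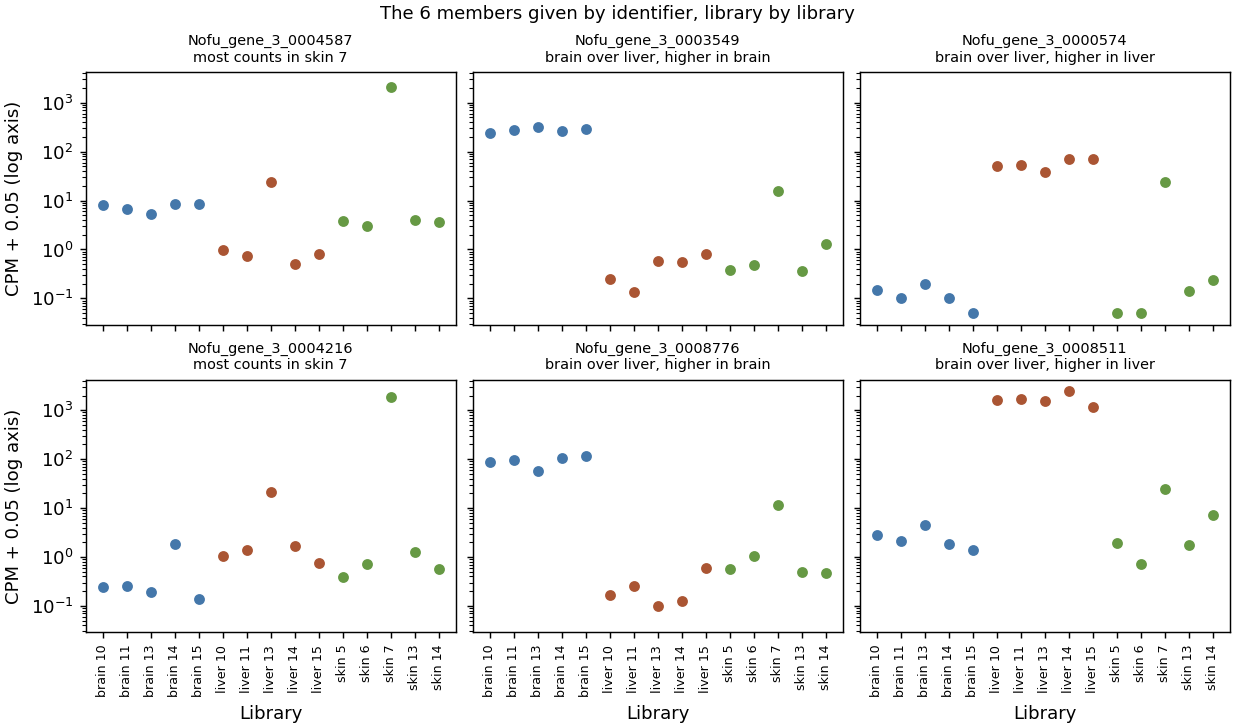
Level of 6 members in each library, in CPM plus 0.05 on a shared log axis. Points are single libraries coloured by tissue. The left column holds the 2 genes with the most counts in skin 7, with liver 13 above the other livers in both. The middle and right columns hold the genes with the largest differences between brain and liver, which in skin 7 stand at 11.6 to 24.6 CPM.

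Libraries other than skin 7 were then examined in the same way, each against the remaining samples of its tissue. In liver 13, 4 members (1.41%) reached 10 CPM and a 4-fold excess, where the background over all entries was 0.300% (55 entries). These were both genes just described, a gene with 17.9 CPM in liver 13 and 487 CPM in skin 7, and a gene with 38.0 CPM in liver 13 and 15.3 CPM in skin 7. The last of these was also at 25.5 CPM in liver 10. Liver 10 and liver 15 each held 1 such member, with backgrounds of 0.202% and 1.83%, and liver 11 held 0, with a background of 0.0109%. Liver 14 held 0 by the rule, with a background of 0.552%. Brain samples held 0 as well, with backgrounds of 0.109% in brain 10, 0.0218% in brain 13, 0.00546% in brain 15 and no entry at all in brain 11 and 14.

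With a limit of 2-fold and 1 CPM, 62 members (21.9%) were higher in liver 14, with a background of 2.88%. Because the rule removed genes with a ratio of 4 or more in liver 14, this count describes what was left, and the members are not free of genes higher there. Their median ratio in liver 14 was 1.202, against 0.996 for entries at 10 CPM or more in skin 7. The corresponding counts were 14 in liver 13 (4.95%, background 1.00%), 19 in liver 15 (6.71%, background 13.2%) and 10 in liver 10 (3.53%, background 2.13%). Liver 11 had 2 (background 0.229%). In brain the counts were 7 in brain 10 (background 0.797%), 2 each in brain 13 and 14 (0.617% and 0.655%) and 0 in brain 11 and 15 (0.180% in both). A ratio of 2 or more, with 0.5 CPM added and no minimum CPM, was also counted. Among the 50 members with the highest CPM in skin 7, 10 reached it in liver 14, 7 in liver 13 and 5 in liver 15. Those with the largest ratios, again 50, gave 14, 7 and 7. No background over all entries was computed for these counts, so nothing is read from them.

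Brain and liver were compared because this contrast holds no skin sample. Livers entered the rule only through the ratio of liver 14 to the other livers. The members were mostly genes with more RNA in liver than in brain. Of the 283, 269 passed the filter on low counts. Higher levels in liver were found for 177 of them (65.8%) and higher levels in brain for 23 (8.55%) with an adjusted p under 0.05 (quasi-likelihood F test of edgeR). Over all 16611 genes tested, 36.0% were higher in liver and 37.8% higher in brain. In all, 73.8% of genes were called in either direction, and 69 members (25.7%) were not called, against 26.2% of all genes. The spread in this fit includes the skin sample for which members were chosen, so nothing is read from the share of members called. The direction of the member calls was not near the background.

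The median log2 fold change of brain over liver was -3.05 for members (quartiles -5.70 and -0.63) and 0.01 for all genes tested. At least 4-fold differences were called for 152 members in favour of liver, with a background of 14.4%, and for 18 in favour of brain, with a background of 21.0%. Without scaling of the libraries the median of all genes moved to 1.49 and that of the members to -1.56, and the calls were 130 in favour of liver and 50 in favour of brain. The share of member calls in favour of brain thus went from 11.5% to 27.8%, and that of all genes from 51.2% to 84.2%. The spread in the edgeR test is estimated over all 15 samples, skin 7 included. Members were chosen for extreme values in skin 7. Without skin 7, 200 of 269 members were higher in liver and 31 in brain, against 6052 and 6379 of 16710 genes. Brain and liver samples alone gave 194 and 33 of 262 members, against 5587 and 6371 of 16137 genes. In both of these fits a larger share of members than of all genes was called. Of the 72 entries left out for liver 14, 63 were tested, with 43 (68.3%) higher in liver and 2 higher in brain. These entries were chosen for high values in liver 14, which raises their liver mean and favours a call for liver. They held 0.578% of the counts of liver 14 and 0.0189% of those of liver 10. Nothing about the members is read from them, and the difference from the members was not tested.

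**Figure D4:**
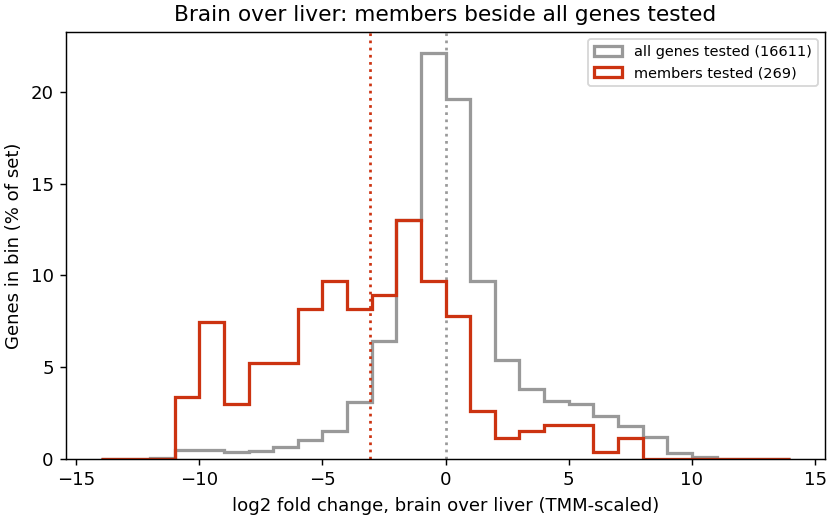
Distribution of edgeR's log2 fold change of brain over liver for the 269 members tested and all 16611 genes tested, as the percentage of each set per bin of width 1. Dotted lines mark the medians, -3.05 for members and 0.01 for all genes. Negative values are higher in liver.

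Genes at the ends of this range are given by identifier. Nofu_gene_3_0000574 (ENSDARG00000045598) stood at 50.04, 53.99, 38.2, 69.6 and 70.7 CPM in liver 10, 11, 13, 14 and 15, with 56.5 ± 13.8 CPM (SD, n = 5). Brain held 8 counts of it over 5 libraries and at most 3 in any of them. On the log2 scale edgeR fitted -10.97 with an SE of 1.797 (adjusted p = 4.01e-05). Skin 7, for which members were chosen, enters the spread behind this SE and those given for the genes below. Without skin 7 the fit gave -10.98 with an SE of 0.423 (edgeR adjusted p = 2.81e-12). The SE of the other genes of this range was then 0.400 to 0.672. With 8 counts in brain, the size of the fitted values of Nofu_gene_3_0000574 is set in part by the prior count. Pooled counts were 6786 in liver and 8 in brain. Over TMM-scaled library sizes they gave a ratio of liver to brain of 2287 (95% counting interval 1160 to 5299). The CPM above are not scaled in this way, so their ratio differs. In skin 7 the gene stood at 23.9 CPM (531 counts), while skin 5 and skin 6 had no counts, which allows up to 0.170 and 0.144 CPM, and skin 13 and 14 held 2 and 4 counts.

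The other gene in this direction, Nofu_gene_3_0008511 (ENSDARG00000033594), was abundant in liver at 1686 ± 468 CPM (SD, n = 5). Liver 15 was lowest with 1149 CPM and liver 14 highest with 2430 CPM. Brain had 2.46 ± 1.19 CPM, and edgeR gave -10.92 on the log2 scale with an SE of 1.03 (adjusted p = 6.72e-08). Its level in skin 7 was 24.6 CPM, and skin 14 at 7.26 CPM was above skin 5, 6 and 13 at 1.93, 0.671 and 1.71 CPM. Of this pair, the gene with far more RNA in liver had about the same level in skin 7.

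Nofu_gene_3_0003549 (ENSDARG00000076500) had the largest difference in favour of brain, with a mean in brain of 279 ± 30.7 CPM (SD, n = 5), where the 5 samples ran from 240 to 323 CPM. Liver had 0.418 ± 0.276 CPM. The difference by edgeR was 7.93 on the log2 scale with an SE of 1.10 (adjusted p = 6.44e-06). It stood at 15.8 CPM in skin 7, against 0.340, 0.432, 0.315 and 1.27 CPM in skin 5, 6, 13 and 14. Nofu_gene_3_0008776 (ENSDARG00000075792) stood at 92.5 ± 23.2 CPM in brain and 0.203 ± 0.208 CPM in liver, where 24 counts were found in all (7.36 on the log2 scale by edgeR, with an SE of 1.02 and adjusted p = 6.42e-06). In skin 7 it reached 11.6 CPM and in the other skin samples 0.424 to 1.01 CPM. Pooled counts over TMM-scaled library sizes gave ratios of brain to liver of 240 for Nofu_gene_3_0003549 and 164 for Nofu_gene_3_0008776. Their counting intervals were 181 to 324 and 110 to 256. The CPM above are not scaled in this way, so their ratios differ.

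Neither gene with the most counts in skin 7 was called between brain and liver in the fit of all 15 samples. For Nofu_gene_3_0004587 edgeR gave -1.13 on the log2 scale with an SE of 1.66 (adjusted p = 0.550), and without liver 13 the value was 1.93. For Nofu_gene_3_0004216 edgeR gave -5.03 with an SE of 2.26 (adjusted p = 0.0549), and without liver 13 the value was -2.81 (edgeR adjusted p = 0.260). The gene passed the test with skin 7 left out (edgeR adjusted p = 6.36e-04), with brain and liver samples alone (edgeR adjusted p = 0.00236) and without brain 14 (edgeR adjusted p = 0.0471). Alternatives for this gene gave adjusted p from 6.36e-04 to 0.791.

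The 177 members higher in liver held 56.1% of the member counts of skin 7, the 69 not called 38.2% and the 23 higher in brain 3.51%. The levels in skin 7 and the low levels in the other skin samples were used by the rule, so their ratios to liver and brain are given as a description. TMM scaling assumes that most genes do not differ between libraries, while 73.8% of genes were called between brain and liver here. With TMM-scaled CPM, the level in skin 7 was at a median of 97.7% of the liver mean for the members higher in liver. The quartiles were 21.3% and 285%. The values ran from 0.485% to 3594%. Skin 7 was above all 5 livers for 73 of the 177 and below all 5 for 76. For the 23 members higher in brain the median was 56.1% of the brain mean, and skin 7 was above all 5 brain samples for 9 of them and below all 5 for 14. In the other skin samples the medians were 4.65% of the liver level and 4.53% of the brain level. These percentages depend on the scaling and were not computed without it. For Nofu_gene_3_0000574 the liver mean was 94.0 CPM with TMM and 56.5 CPM without, while skin 7 stood at 23.7 and 23.9 CPM.

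**Figure D5:**
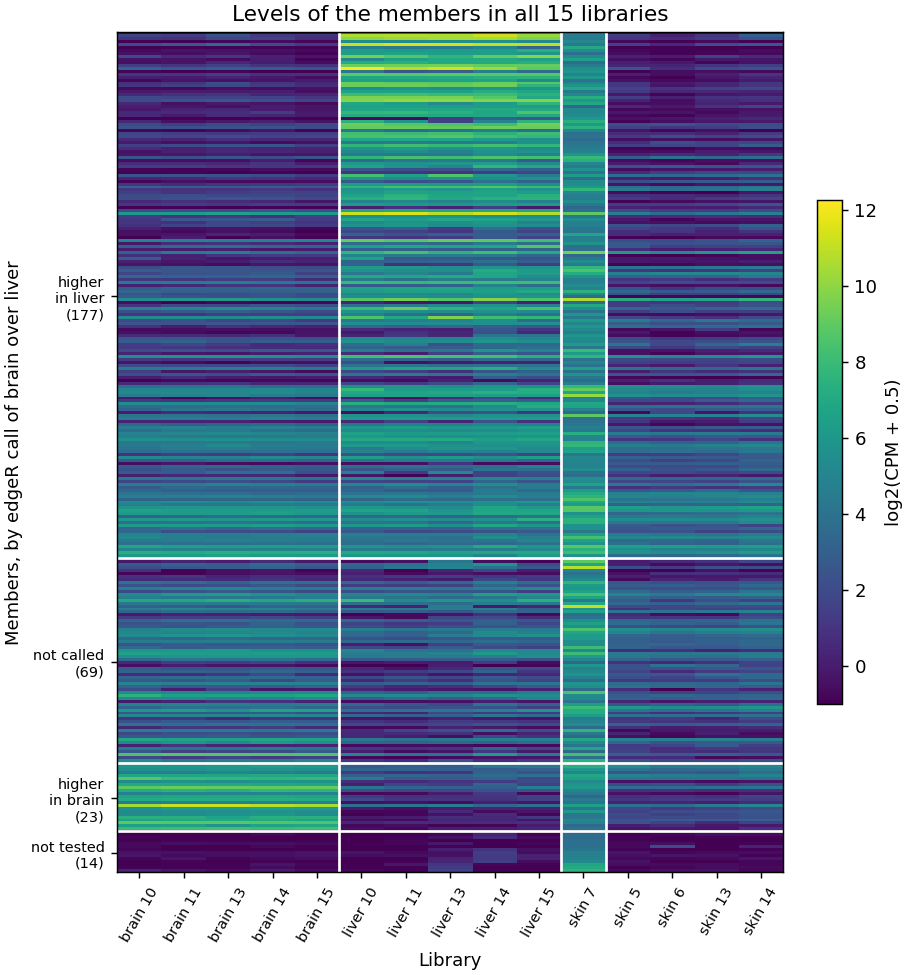
Level of each of the 283 members, as log2(CPM + 0.5), in all 15 libraries. Rows are members grouped by edgeR's call of brain over liver (177 higher in liver, 69 not called, 23 higher in brain, 14 not tested) and ordered by fold change or, where not tested, by level in skin 7. Skin 7 is set beside the other 4 skin samples.

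The next counts also use the levels in skin 7, for which members were chosen, so the rule favours high values in skin 7 and nothing is read from the excess over the background. Skin 7 was above all 10 brain and liver samples for 167 members (59.0%), with a background of 27.9% among entries at 10 CPM or more in skin 7. With TMM scaling these numbers were 155 and 25.8%. Skin 7 exceeded each of the 5 livers for 192 members (67.8%, background 62.4%) and each of the 5 brain samples for 246 (86.9%, background 36.8%). With TMM the count for liver was 172 members (60.8%) and its background 36.8%. Above each brain sample TMM gave 259 members (background 53.7%). Skin 7 was below each liver for 65 members (23.0%, background 9.75%) and below each brain sample for 28 (9.89%, background 50.5%). With TMM these became 80 (28.3%, background 33.3%) and 17 (6.01%, background 29.0%).

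When brain, liver and the other skin samples were ranked by mean CPM, liver was highest for 171 members (60.4%, background 12.9%), brain for 82 (29.0%, background 54.4%) and the other skin samples for 30 (10.6%, background 32.7%). TMM scaling gave 218, 39 and 26, with backgrounds of 43.1%, 25.6% and 31.3%. The low count for skin follows from the rule, which chose genes low in those samples and so raised the summed count for liver and brain. Most members had counts in all tissues. Means of at least 1 CPM were reached in brain by 208 members (background 96.2%), in liver by 244 (background 94.4%) and in the other skin samples by 198 (background 98.7%). Of the members, 166 (58.7%) reached it in all 3, against 92.3% of entries at 10 CPM or more in skin 7.

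For the next classes the rule fixed the excess over the background, and nothing is read from it. Any entry at 10 CPM in skin 7 and under 1 CPM in the other skin samples meets the 4-fold limit. Every background entry of these classes is therefore a member or was left out for liver 14. A mean of 1 CPM was reached in liver but neither in brain nor in the other skin samples by 36 members (12.7%, background 0.627%), and in brain alone by 8 (2.83%, background 0.0837%). Another 16 members (5.65%, background 0.209%) had means under 1 CPM in all 3. Those 16 stood at 10.6 to 198 CPM in skin 7, with a median of 17.1 CPM, and at no more than 2.50 CPM in any other library. The 14 members that did not pass the filter on low counts ranged from 10.6 to 198 CPM in skin 7 and were at most 3.55 CPM elsewhere.

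Members were also grouped by the ratio of skin 7 to the other skin samples. The rule used this ratio, and large ratios favour genes with low levels in the other skin samples. No background over all entries was computed for these classes, so their levels and calls are given as a description only. Median levels in brain were lower in the classes with larger ratios. For the 118 members with ratios of 4 to 8, the median mean level was 13.95 CPM in brain and 19.3 CPM in liver. For the 42 with ratios of 50 or more it was 0.610 CPM in brain and 17.0 CPM in liver. Of the latter, 38 were tested, 29 were higher in liver and 0 in brain by edgeR. In the class of 4 to 8, 75 of 118 were higher in liver and 13 in brain. Classes of 8 to 20 and 20 to 50 gave 45 of 74 and 28 of 39 higher in liver. Across the 283 members, the level in skin 7 was related to the mean level in the other skin samples with a Spearman's rho of 0.551, in brain with 0.382 and in liver with 0.278. These are descriptions over genes, which share libraries and gene length and are not independent, and among all 9563 entries at 10 CPM or more in skin 7 the values were 0.855, 0.355 and 0.483.

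Features that the rule did not use are given beside those of other entries, and the differences were not tested. Of the members, 225 (79.5%) were flagged as best bidirectional hits of their zebrafish gene, against 84.0% of entries at 10 CPM or more in skin 7. Their median length was 2.62 kb (quartiles 1.92 and 3.57 kb), against 3.03 kb for those entries (quartiles 2.00 and 4.40 kb). Over all entries with a length the median was 2.37 kb. An identifier shared with another entry was found for 67 members (23.7%) and 24.1% of those entries. The 283 members carried 278 different zebrafish identifiers, 5 of which stood on 2 members each. Another 71 entries shared an identifier with a member without being one. Of these, 25 reached 10 CPM in skin 7, with a median ratio of 0.981, and 1 of them had a ratio above the limit, 697, and had been left out for liver 14. Counts of near-identical copies are uncertain, since how reads with several matches were counted is not given in the sources used here.

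The same rule was also applied to the same libraries counted against gene models of the genome in place of the catalogue. There the rule took 346 of 23546 gene models and left out 122 for liver 14. Those 346 held 3.40% of the counts of skin 7 and 0.154 to 0.225% of the counts of the other skin samples. Here too the rule fixed the direction and a difference of at least 4-fold, and the shares are given as a description. No table links these models to catalogue entries here, so it was not determined how many of them are the same genes.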

How the data were processed

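The authors deposited read counts per catalogue entry and per genome gene model, and RPKM values for both. The counts were taken as raw because they are whole numbers with a different total per library. RPKM is reads per kilobase of gene and 1000000 counted reads, and gene lengths were derived from the deposited RPKM and counts. Per the submitters' processing notes, featureCounts 1.4.3-p1, TopHat2 2.0.6, Bowtie and CASAVA 1.8.2 were used. Build, annotation, strand setting and how these tools were applied: not given in the sources used here. Another 60 columns of RPKM belong to samples not analysed here.

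Zebrafish, catalogue and genome identifiers gave 0 matches among 38438 genes of the RefSeq table (NfurGRZ-RIMD1), so 34 marker lists could not be used. Members and lists were chosen with earlier results of these data known. Named genes are the 2 members per direction with the largest fold among those called between brain and liver, and the 2 with the most counts in skin 7, added after their values were seen.

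Brain and liver were compared with edgeR 4.0.16 (R 4.3.3): filterByExpr with a count minimum of 10, TMM, all 15 samples in 1 quasi-likelihood fit, Benjamini-Hochberg adjustment over 16611 genes, threshold 0.05. SE is the size of the fold change divided by the square root of F. The upper limit printed for a count of 0 equals 3 counts of that library. The procedure was also run on simulated counts in which few genes differed. In these data 73.8% of genes were called between brain and liver, so that run does not cover this setting. Alternatives used DESeq2 1.42.0 and limma 3.58.1. Libraries of a tissue all differed by more than counting noise.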

Additional observations from a re-analysis of the deposited data

Results flagged for a closer look

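In 21 groups of 5 samples examined for a sample far from the rest (Dixon's criterion), 10 held one, where chance gives about 1 in 20. Of these 10, 7 are skin groups with skin 7 apart, which the choice of members fixed: the members' share of counts at 3.14%, Nofu_gene_3_0004587 at 2132 CPM, Nofu_gene_3_0004216 at 1895 CPM, Nofu_gene_3_0003549 at 15.8 CPM, Nofu_gene_3_0008776 at 11.6 CPM, Nofu_gene_3_0000574 at 23.9 CPM and Nofu_gene_3_0008511 at 24.6 CPM.

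The remaining 3 lie outside skin. Nofu_gene_3_0004587 stood at 24.4 CPM in liver 13, and the next liver at 0.916 CPM. Nofu_gene_3_0004216 stood at 20.8 CPM in liver 13, where the next liver had 1.61 CPM, and at 1.79 CPM in brain 14, where the next brain sample had 0.204 CPM. Both were picked for their counts in skin 7.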

How the results depend on the processing

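The number of members was 283, and 165 with a fold of 8. Other settings of the rule gave 196 to 392, and leaving out 1 of the other skin samples gave 272 to 309, of which 268 to 280 were among the 283. Their share of the counts of skin 7 was 3.09% with TMM-scaled levels, 2.67% for best bidirectional hits and 3.05 to 3.25% without 1 skin sample. Over all genes, 11623 were higher in brain and 2189 in liver without scaling, 11898 and 2089 by limma on log2(RPKM + 0.1), and 11671 and 2021 on log2(RPKM + 1). Members higher in brain numbered 50, 56 and 45 in these fits, and 14 by DESeq2, which gave no adjusted p for 104 of the 269 members. Over all genes DESeq2 called 6312 higher in brain and 6014 in liver. Members higher in liver numbered 130 without scaling, 129 and 124 by limma and 125 by DESeq2, of 269 tested. Under each alternative run their number stayed within 1.5 times of 177. For Nofu_gene_3_0004587 the log2 fold change turned to 0.47 without scaling, 1.47 and 0.33 by limma, and 1.93 without liver 13 (-1.44 to 1.93 over all fits without 1 library), and was not called in any of these fits. Nofu_gene_3_0004216 was called in 4 alternatives, and the other named genes kept their calls and direction in those where they were tested.

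The title numbers were used as pairs only if every same-numbered pair of brain and liver samples correlated above 0.1 in its deviations from the tissue means. The 5 values were 0.0819 to 0.181 and 3 exceeded 0.1, so the block was not used. The highest correlation was with the same number in 4 of 5 brain samples and 4 of 5 livers, a hint of pairing from the data that the labels do not state. The replicate block was run on brain and liver samples only. It gave 33 of 262 members higher in brain and 190 in liver, against 6385 and 5336 of 16137 genes. Nofu_gene_3_0004587 was at 1.18, and Nofu_gene_3_0004216 was called at -4.16 (edgeR adjusted p = 0.00239). The same samples without the block gave 33 and 194 members, against 6371 and 5587 genes. Nofu_gene_3_0004587 was then at -1.07, and Nofu_gene_3_0004216 was called at -4.98 (edgeR adjusted p = 0.00236). The member counts and the call of Nofu_gene_3_0004216 were thus much the same without the block, while the sign of Nofu_gene_3_0004587 differed. The cause of that difference was not tested.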
